A study of Mus musculus with 2 samples.

Results

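The 3 class IV POU genes, Pou4f1, Pou4f2 and Pou4f3 (also known as Brn3a, Brn3b and Brn3c), were described in the open chromatin of mouse midbrain at embryonic day 11.5. They were chosen by name, as 3 of 21668 protein-coding genes on chromosomes 1 to 19 and X. For each gene, the peaks within 500 bp of a transcription start site (TSS) and those from 100 kb before to 100 kb after the gene were taken, with the hotspots of the same span. All coordinates are on mm10 with GENCODE vM21 genes. Pou4f1 (ENSMUSG00000048349.9) lies at chr14:104461676-104467999 on the minus strand and has 1 TSS. Pou4f2 (ENSMUSG00000031688.4) lies at chr8:78433010-78436645 on the minus strand, also with 1 TSS. Pou4f3 (ENSMUSG00000024497.4) lies at chr18:42394539-42397249 on the plus strand, with TSSs at 42394539 and 42395075. The genes are 6324, 3636 and 2711 bp long. Distances below are from the first TSS to the middle of a peak or site, and downstream means in the direction of transcription.

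The study mapped sites cut by DNase I, an enzyme that cuts DNA where chromatin is open, by sequencing (DNase-seq). It had 1 group of 2 biological replicates: midbrain of B6NCrl strain embryos, with males and females pooled. The labels call these biological replicates and give both the same donor entry, so an SD below measures the spread between these 2 libraries. No control, treatment or other tissue was part of the design, so no test between conditions was possible and the values below are descriptions. A peak reports accessible DNA in some of the cells of the tissue, not expression of the gene nearby.

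Replicate 1 had 306572 deposited peaks and 268062 hotspots, and replicate 2 had 455245 and 376137. Every peak was 150 bp wide. A hotspot is a longer region of raised cutting, with a median width of 214 bp in replicate 1 and 201 bp in replicate 2. The signal deposited with each peak is a whole number with no stated normalization, with a median of 18 in replicate 1 and 8 in replicate 2. A site was called shared where overlapping peaks of both replicates merged into 1 region, which held for 89717 of 583597 regions (15.4%). Of these shared sites, 87.9% had a lower signal in replicate 2, so a signal is read below within its own replicate. Read depth is unknown. The labels name different Illumina instruments for the libraries of each replicate, and instrument and replicate cannot be told apart.

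POU factors bind DNA through a POU-specific domain joined to a homeodomain, and class IV members act mainly in neurons that have left the cell cycle. Pou4f1 is known from sensory ganglia, habenula, dorsal midbrain and the red nucleus, Pou4f2 from retinal ganglion cells and the superior colliculus, and Pou4f3 from hair cells of the inner ear. In the midbrain, Pou4f1 and Pou4f2 mark neurons of the tectum, and Pou4f1 also marks the red nucleus, a motor relay of the ventral midbrain.

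The promoter sequences of Pou4f1 and Pou4f2 are shown because both held a peak of each replicate; they come from the RefSeq promoter table on GRCm38, in which 2 of the 3 genes were matched. Each run gives the 250 bases before the RefSeq start, 5′ to 3′ on the strand of the gene, with capitals on the words GGGCGG (a GC box) and CAGCTG (an E-box bound by bHLH factors) read on either strand. The first run lies at chr14:104468000-104468249 and the second at chr8:78436648-78436897.
Pou4f1 promoter: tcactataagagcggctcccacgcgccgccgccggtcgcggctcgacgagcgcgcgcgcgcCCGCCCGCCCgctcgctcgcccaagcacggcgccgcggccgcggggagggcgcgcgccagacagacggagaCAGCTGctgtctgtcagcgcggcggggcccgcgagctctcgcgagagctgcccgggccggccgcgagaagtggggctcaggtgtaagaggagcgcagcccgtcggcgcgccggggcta
Pou4f2 promoter: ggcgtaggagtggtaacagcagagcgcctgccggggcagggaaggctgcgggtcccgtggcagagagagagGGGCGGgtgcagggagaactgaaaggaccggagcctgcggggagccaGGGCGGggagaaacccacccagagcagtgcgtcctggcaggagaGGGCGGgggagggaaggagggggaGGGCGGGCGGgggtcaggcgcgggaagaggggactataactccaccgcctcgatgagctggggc
GC made up 78.0% of the Pou4f1 run, which held 47 CpG dinucleotides, and 70.8% of the Pou4f2 run, which held 17. GGGCGG occurred in both, as it did in 35.9% of 32619 promoters of 300 bases in the table. CAGCTG occurred at Pou4f1 and in 16.4% of promoters. TATAAA (13.7% of promoters) and CCAAT (37.6%) occurred in neither. These searches describe letters in the window and say nothing of what binds there.

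The Pou4f1 promoter had the strongest TSS peak of the 3 genes. Its peak was centred 52 bp upstream of the TSS, at chr14:104467976-104468125 in both replicates, with a signal of 123 in replicate 1 and 66 in replicate 2. Replicate 2 had a further peak of signal 59 in the 5′ UTR, 148 bp downstream, with no overlapping peak in replicate 1. The promoter peak lay in hotspots 1968 and 2487 bp wide, both at 100, the ceiling of the −log10 q scale. Hotspots at least as wide made up 0.574% of those in replicate 1 and 0.830% of those in replicate 2.

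At Pou4f2 the stronger peaks lay inside the gene, and the peaks before the TSS were weaker. In replicate 1 a peak of signal 68 lay 394 bp downstream, in coding sequence, and one of 37 lay 166 bp upstream. In replicate 2 the matching peaks had signals of 62, at 374 bp downstream, and 28, at 246 bp upstream. Both pairs overlapped between replicates, so the order of the peaks was the same in each. The hotspots differed more than the peaks. That of the coding peak was 700 bp wide with a −log10 q of 5.70 in replicate 1, and 2543 bp wide at the ceiling in replicate 2.

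Pou4f3 had several weaker peaks spread over its short body. Replicate 1 had a peak of signal 44 in the 5′ UTR, 32 bp downstream of the first TSS, a peak of 53 in the intron, 312 bp downstream, and one of 28, 892 bp downstream. Replicate 2 had peaks of 46 at 152 bp and 33 at 612 bp downstream. The peaks of 44 and 46 overlapped, and the other 3 had no partner. In replicate 1 the TSS peaks fell in hotspots of 852 and 312 bp, and in replicate 2 in a single hotspot of 4944 bp that ran past both ends of the gene. Of the hotspots of replicate 2, 0.0956% were at least that wide.

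All 3 genes had a peak of each replicate within 500 bp of a TSS, which is the state of most genes: 65.5% of protein-coding genes did. By replicate, the share was 68.0% of genes in replicate 1 and 69.5% in replicate 2. The order Pou4f1, Pou4f2, Pou4f3 held in each replicate. As a percentile of TSS signal among all genes, with genes that lacked a peak set to 0, Pou4f1 stood at 78.0 in replicate 1 and 62.5 in replicate 2, a mean of 70.3 ± 11.0 (SD, n = 2). Pou4f2 stood at 45.5 and 58.1 (51.8 ± 8.91) and Pou4f3 at 41.5 and 45.4 (43.4 ± 2.80). The gap between Pou4f1 and Pou4f2 was the wider one in replicate 1, and that between Pou4f2 and Pou4f3 was the wider one in replicate 2. With n = 2, the SDs do not test whether the genes differ. Among genes with a TSS peak the median signal was 112 in replicate 1 and 68 in replicate 2. Only the value of 123 for Pou4f1 in replicate 1 exceeded these medians. With a TSS window of 150 bp in place of 500 bp, Pou4f2 dropped out and 2 of 3 genes held a peak of each replicate.

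Around the TSS, and not only at it, Pou4f1 was densely accessible in both replicates. Hotspots covered 53.9% of the sequence within 10 kb of its TSS in replicate 1 and 74.6% in replicate 2, against medians over all genes of 6.53% and 9.70%. Shares this high or higher were found at 0.291% and 0.540% of genes. Among the 7940 genes of at most 10 kb in length the figures were 0.340% and 0.869%. This window of Pou4f1 touched 29 peaks in replicate 1 and 33 in replicate 2. From 10 kb before to 10 kb after the gene, Pou4f1 had 7.22 shared sites per 10 kb. Some genes of the lists described below had more, such as Nkx6-1 (10.4), Zic1 (10.1) and Dlx1 (9.28), and most had fewer.

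For Pou4f2 and Pou4f3 the replicates gave different pictures of the same window. Hotspots covered 14.0% of the Pou4f2 window in replicate 1, a level reached by 14.0% of genes, and 67.2% in replicate 2, a level reached by 0.960% of genes. The Pou4f3 window was covered to 13.2% and 44.5%, levels reached by 15.9% and 4.18% of genes. Peaks numbered 9 in replicate 1 and 29 in replicate 2 at Pou4f2, and 9 and 21 at Pou4f3. Replicate 2 was the higher at all 3 genes, and its peak list was 1.49 times as long over the genome.

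**Figure D1:**
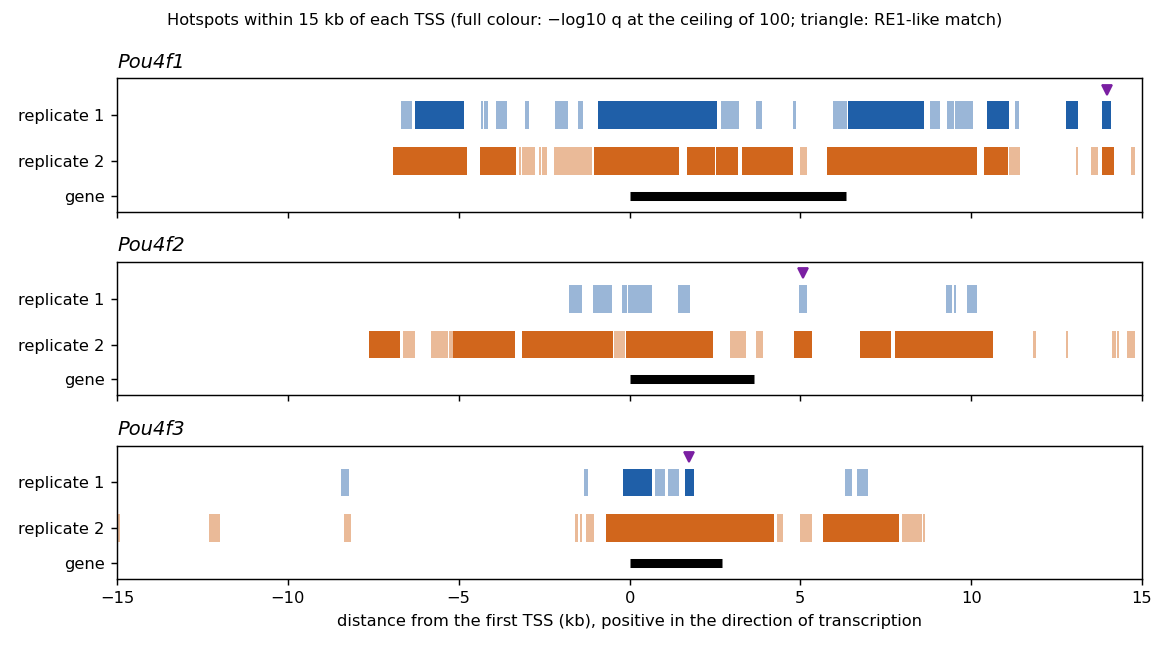
Hotspots within 15 kb of the first TSS of each gene (x axis, kb, positive in the direction of transcription), with one row for each replicate, a black bar for the gene and a triangle for the RE1-like match. Full colour marks a −log10 q at the ceiling of 100: the wide bars of replicate 2 at Pou4f2 and Pou4f3 lie below short bars of replicate 1, while Pou4f1 is broadly covered in both.

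Over the full span of 100 kb to each side, Pou4f1 held 23 shared sites, Pou4f2 held 15 and Pou4f3 held 10, against a median of 13 over all genes. At least as many were found at 20.04%, 43.8% and 64.2% of genes, but longer genes have longer spans. Per 100 kb of span the counts were 11.1, 7.37 and 4.93, against a median of 5.29. Such densities were reached by 14.4%, 32.6% and 53.2% of genes, so Pou4f1 stood above most genes and Pou4f3 near the middle. The regions from which the sites came numbered 70, 61 and 36. Replicate 1 alone gave 50 sites at Pou4f1, 19 at Pou4f2 and 18 at Pou4f3, and replicate 2 alone gave 44, 57 and 28. Within 10 kb of the TSS the shared sites numbered 15, 7 and 5, against a median of 2, and such counts were reached by 0.374%, 4.62% and 11.8% of genes. Beyond 50 kb, Pou4f1 had 4 shared sites, Pou4f2 had 5 and Pou4f3 had 3.

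Peaks in the spans numbered 55 in replicate 1 and 47 in replicate 2 at Pou4f1 (51.0 ± 5.66), 20 and 67 at Pou4f2 (43.5 ± 33.2) and 19 and 35 at Pou4f3 (27.0 ± 11.3, each SD, n = 2). The 3.35-fold gap at Pou4f2 was as large or larger at 11.5% of genes. Pou4f1 went the other way, with fewer peaks in replicate 2. The peaks of replicate 2 with no partner at Pou4f2, 51 of 67, had a median signal of 11, above the median of 8 over the whole list and below the 28.5 of its peaks with a partner. In replicate 1 the reverse held, and the 4 of 20 peaks without a partner had a median of 56 against 42.5. Those of signal 73 and 65 lay 71.8 and 73.1 kb upstream, at the promoters of the neighbouring genes Rbmxl1 and Slc10a7. Of the 20 peaks, 19 lay within 300 bp of a replicate 2 peak, whether or not they overlapped it. Some of the unpartnered peaks of replicate 2 lay inside hotspots of that replicate at the ceiling that flank the gene. The widest of these hotspots were centred 1821 bp upstream (2645 bp wide), 4269 bp upstream (1809 bp wide) and 9201 bp downstream (2862 bp wide). Narrower ones included those 7194 bp downstream (888 bp wide) and 7171 bp upstream (903 bp wide). Like the one 1809 bp wide, both overlapped no hotspot of replicate 1.

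**Figure D2:**
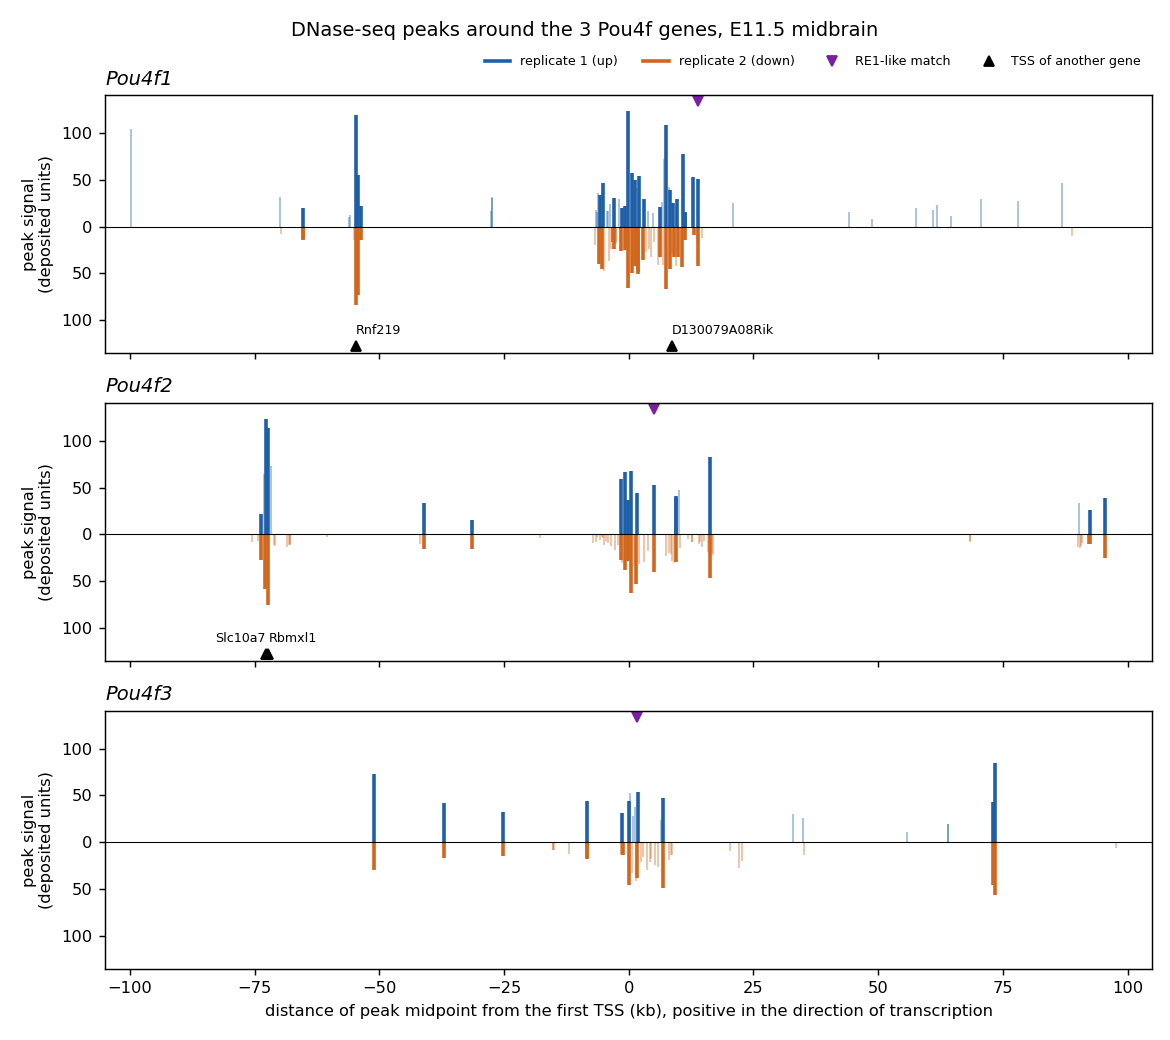
Peaks from 100 kb before to 100 kb after each gene by distance from the first TSS (x axis, kb), with the deposited signal of replicate 1 drawn up and that of replicate 2 drawn down (y axis). Peaks with a partner in the other replicate are in full colour: they crowd within 15 kb of Pou4f1, while the 51 unpartnered peaks of replicate 2 at Pou4f2 show as short pale lines.

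Of the 23 shared sites at Pou4f1, 15 lay within 10 kb of the TSS and none lay farther downstream than 14.0 kb. The strongest outside any promoter lay past the 3′ end of the gene. That site, 7468 bp downstream, had signals of 108 and 67, close to those of the promoter. It is intergenic, between the 3′ end of Pou4f1 and the start of D130079A08Rik, a long noncoding RNA gene on the same strand whose TSS is 8663 bp downstream. Its hotspots were 2245 and 4402 bp wide, both at the ceiling, and in replicate 2 the hotspot ran from the 3′ UTR of Pou4f1 into the noncoding gene. Further sites in the first part of the noncoding gene lay 10.8 kb downstream (77 and 43), 13.0 kb downstream (53 and 9) and 14.0 kb downstream (51 and 42). The TSS of D130079A08Rik itself had signals of 39 and 45, lower than these sites in replicate 1 and higher in replicate 2.

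Inside Pou4f1, shared sites lay 648 bp downstream in the intron (57 and 50) and 1268 and 1938 bp downstream in coding sequence (50 and 42, then 54 and 51). Upstream, a pair at 5302 bp (47 and 45) and 5852 bp (34 and 40) lay in a hotspot of 1418 bp in replicate 1 and 2188 bp in replicate 2. At Pou4f1, 14 of 23 shared sites had the lower signal in replicate 2, at Pou4f2 12 of 15 and at Pou4f3 7 of 10. Each of these shares was smaller than the 87.9% of all shared sites. The 2 strongest sites beyond 50 kb, with 119 and 84 at 54.7 kb and 55 and 73 at 54.3 kb upstream, lay within 500 bp of the TSS of Rnf219, a ubiquitin ligase gene. Without them, 21 shared sites remained. The strongest peak without a partner was a replicate 1 peak of signal 104 at 99.8 kb upstream.

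**Figure D3:**
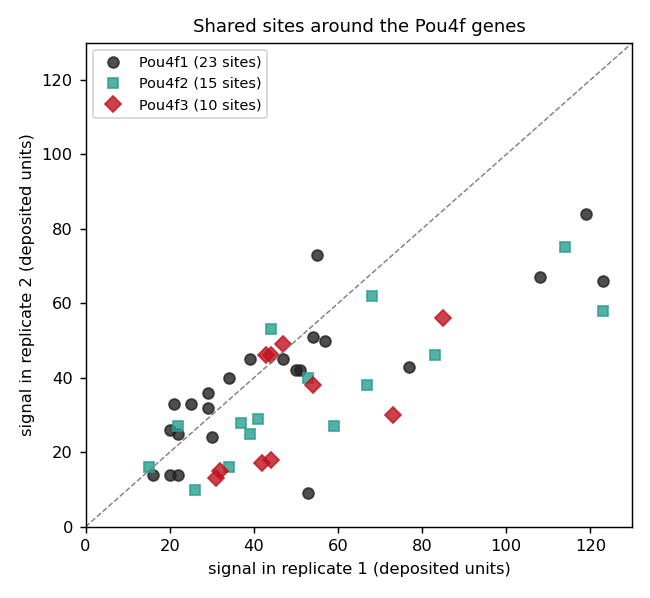
Deposited signal of each shared site in replicate 1 (x axis) against replicate 2 (y axis), with 23 sites for Pou4f1, 15 for Pou4f2 and 10 for Pou4f3; the dashed line marks equal values. Most points lie below the line, as do 87.9% of all shared sites, and of those above it 9 are sites of Pou4f1, 3 of Pou4f2 and 3 of Pou4f3.

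At Pou4f2 the shared site with the highest mean percentile of signal outside neighbouring promoters lay 16.3 kb downstream, at chr8:78420316-78420465 in both replicates, with signals of 83 and 46. In replicate 1 its signal exceeded those of all sites in and near the gene, and in replicate 2 the sites 384 bp (62) and 1574 bp downstream (53) were higher. Upstream sites at 746 bp (67 and 38) and 1616 bp (59 and 27) had the lower signal in replicate 2. Their percentiles within each list were higher there (88.6 and 91.8, then 85.8 and 87.3). The site 1574 bp downstream, in coding sequence, was higher there in both signal (44 and 53) and percentile (78.7 and 95.6). A pair of sites at 72.3 kb (114 and 75) and 72.8 kb (123 and 58) upstream marked the divergent promoters of Rbmxl1, which encodes an RNA-binding protein, and Slc10a7, a transporter gene. Leaving these out left 13 shared sites. The farthest, 95.6 kb downstream (39 and 25), lay in an intron of Ttc29. The strongest peaks without a partner had signals of 73 in replicate 1, 71.8 kb upstream near Rbmxl1, and 34 in replicate 2, 1034 bp downstream.

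Of the 10 shared sites at Pou4f3, 5 lay within 10 kb of the first TSS, but the strongest in each replicate was a distant one. That site, 73.4 kb downstream, had signals of 85 and 56, and a second site 73.0 kb downstream (43 and 46) lay in the same hotspots of 976 and 1143 bp. Upstream, the sites lay at 51.1 kb (73 and 30), 37.1 kb (42 and 17), 25.2 kb (32 and 15), 8.35 kb (44 and 18) and 1218 bp (31 and 13). Each had the lower signal in replicate 2, as did 87.9% of all shared sites. By percentile of signal within each list, only the site at 51.1 kb was lower there (90.4 and 88.8). Downstream near the gene, the site at 1742 bp (54 and 38) also had the lower signal in replicate 2, but the higher percentile (83.8 and 91.8). Those at 92 bp (44 and 46) and 6852 bp (47 and 49) had the higher signal there. No shared site of this span lay at the promoter of another coding gene. The strongest peaks without a partner were the intronic 53 of replicate 1 and a peak of 41 in replicate 2, 1432 bp downstream.

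The sequences of 4 distal sites are shown: the site of Pou4f1 and of Pou4f2 with the highest mean percentile of signal outside any promoter, and 1 of each that held a shared word. They are printed from GRCm38 on the strand of the gene, 5′ to 3′. Capitals mark the E-box CAGCTG in one run and, in others, a match to the RE1 element (TTCAGCACC, any 2 bases, then GGNCAG). They lie at chr14:104460436-104460625, chr14:104453936-104454105, chr8:78420316-78420465 and chr8:78431476-78431645, in that order.
Pou4f1, 7468 bp downstream: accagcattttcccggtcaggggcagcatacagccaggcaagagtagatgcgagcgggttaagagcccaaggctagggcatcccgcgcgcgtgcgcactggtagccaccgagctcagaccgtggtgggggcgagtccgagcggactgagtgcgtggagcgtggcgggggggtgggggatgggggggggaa
Pou4f1, 14.0 kb downstream: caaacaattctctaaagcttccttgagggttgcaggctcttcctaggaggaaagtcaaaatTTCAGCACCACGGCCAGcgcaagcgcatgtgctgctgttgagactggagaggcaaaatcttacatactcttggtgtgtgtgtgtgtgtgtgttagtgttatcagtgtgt
Pou4f2, 16.3 kb downstream: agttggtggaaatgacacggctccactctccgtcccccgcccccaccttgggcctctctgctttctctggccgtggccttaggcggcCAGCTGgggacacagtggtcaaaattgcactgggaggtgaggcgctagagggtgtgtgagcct
Pou4f2, 5084 bp downstream: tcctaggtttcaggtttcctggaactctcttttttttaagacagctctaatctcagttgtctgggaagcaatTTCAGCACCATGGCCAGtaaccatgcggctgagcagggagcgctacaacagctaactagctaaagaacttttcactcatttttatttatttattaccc
GC made up 67.9% of the first run, with 16 CpG dinucleotides, and 47.1%, 62.7% and 41.8% of the others. The RE1 element is known as the binding sequence of REST, a repressor of neuronal genes in other cell types and in progenitors. At Pou4f1 the match lay at chr14:104454028-104454044, in a site with signals of 51 and 42. At Pou4f2 it lay at chr8:78431557-78431573, in a site between the 3′ end of the gene and the hotspots farther downstream, with signals of 53 and 40. Both matches read on the strand of the gene.

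Each of the 3 spans held exactly 1 such match, and each match fell in a shared site. At Pou4f3 it lay 1743 bp downstream of the first TSS, in the 3′ UTR on the opposite strand, in the site with signals of 54 and 38. The signals at the 3 sites were thus alike, at 51, 53 and 54 in replicate 1 and 42, 40 and 38 in replicate 2. Such matches were rare: chromosomes 1 to 19 and X held 281, or 0.0213 per 200 kb. A match in a shared site from 100 kb before to 100 kb after the gene was found for 492 of 21668 genes (2.27%), and any match for 4.02%. Of the 281 matches, 149 (53.0%) lay in a shared site, 55.9% in a replicate 1 peak and 63.3% in a replicate 2 peak. Shared sites with a match had median signals of 42 and 32. Of the other 12 POU genes, Pou3f1 had 1 match, also in a shared site, and the remaining 11 had none. The word was chosen after the sequences of these sites had been read, so the count of 3 is a description, and whether REST occupied any of the sites was not measured.

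Sequence words of POU and other factors were searched on either strand in the central 150 bp of the 48 shared sites. The POU class IV words ATAATTAAT and CTCATTAA, the octamer ATGCAAAT and the homeodomain word TAATTA, which overlaps the first of these, occurred in none of the 48. They were uncommon in all shared sites too, at 0.114%, 0.575%, 1.18% and 2.72%. CAGCTG occurred in 7 of 48 sites (14.6%, against 13.2% of all shared sites) and the GATA word AGATAA in 3 (6.25% against 4.66%). CAGATG, the E-box of proneural bHLH factors, occurred in 8 (16.7% against 12.5%), of which 6 were among the 23 sites of Pou4f1. A word that is not found says only that these letters are not in the window.

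The 3 genes lie in CpG-rich surroundings to different degrees. Within 500 bp of the first TSS, GC made up 70.0% at Pou4f1, 66.8% at Pou4f2 and 58.5% at Pou4f3, against a median of 55.3%. The observed to expected CpG ratio was 1.02, 0.725 and 0.630, against a median of 0.576, and was as high at 1.40%, 32.9% and 44.8% of genes. Within 10 kb the ratios were 0.576, 0.403 and 0.383 against a median of 0.249, and were as high at 0.120%, 3.03% and 4.66% of genes. The order of the genes by CpG ratio was the same as by TSS signal and by hotspot coverage in each replicate. In replicate 1 the coverage of Pou4f2 and Pou4f3 was close (14.0% and 13.2%). A link between CpG ratio and accessibility was not tested with these 3 genes.

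Within the POU family, the class III genes Pou3f3 and Pou3f2, factors of neural progenitors, were more accessible than any class IV gene. Hotspots covered 91.3% and 94.0% of the sequence within 10 kb of the Pou3f3 TSS and 90.3% and 93.6% of that of Pou3f2. Pou4f1 came next in both replicates. Pou4f2 and Pou4f3, at 67.2% and 44.5%, took the following places in replicate 2. In replicate 1, at 14.0% and 13.2%, they fell below Pou5f2 (21.7%), Pou3f4 (19.99%), Pou3f1 (18.9%) and Pou2f1 (16.8%). Pou4f3 was there also below Pou6f1 (13.6%). Of the 12 other POU genes, 8 had a peak of each replicate within 500 bp of a TSS, a share near the 65.5% of all protein-coding genes. By mean percentile the highest were Pou2f1, a broadly expressed octamer factor (signals of 130 and 97), and Pou3f2 (132 and 91). Pou5f1, the pluripotency factor, had no TSS peak in either replicate.

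**Figure D4:**
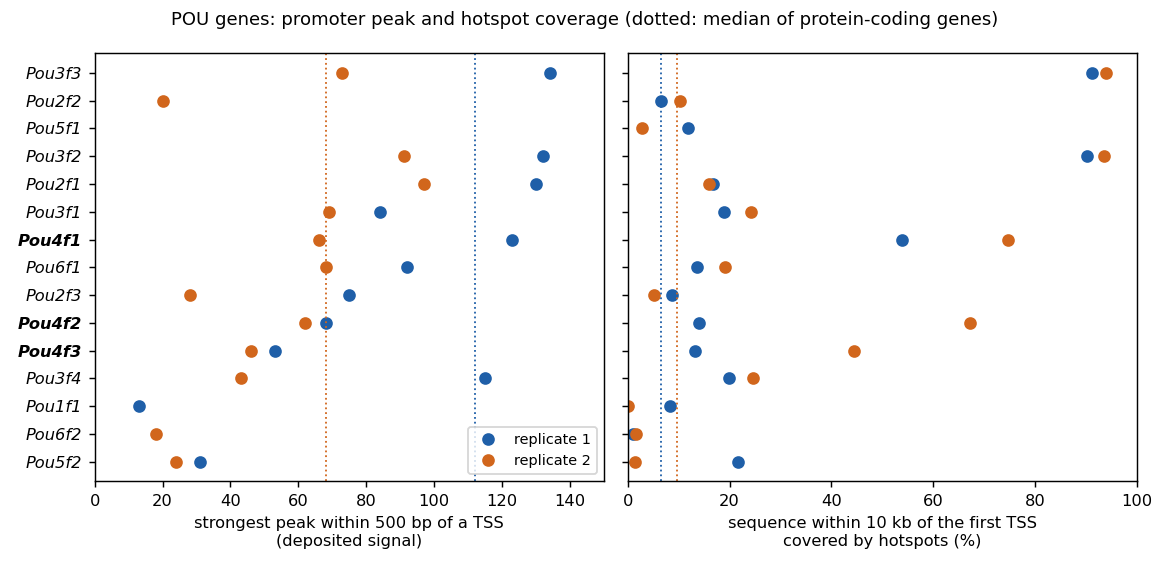
Strongest peak within 500 bp of a TSS (left, deposited signal) and share of sequence within 10 kb of the first TSS covered by hotspots (right, %) for the 15 POU genes, ordered by shared sites in their spans; a missing point means no TSS peak, and dotted lines are medians over protein-coding genes, on the left over those with a TSS peak. In coverage, Pou4f1 takes the third place in both replicates, and Pou4f2 and Pou4f3 show the widest gaps between replicates, which does not hold for TSS signal.

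Genes that act with or before the Pou4f factors were mostly accessible as well. In this and the following lists, the leading genes are those with the highest mean over both replicates of the percentile of TSS signal, so another gene may have the higher signal in 1 replicate. Of 16 upstream and partner factors, such as proneural, Ebf and LIM genes, all 16 had a peak of each replicate at a TSS, with signals from 38 to 133 and from 34 to 80. By that mean, Sox11, a factor of newborn neurons (133 and 78), and Ebf2 (132 and 73) led. Atoh1, a bHLH factor upstream of Pou4f3 in hair cells, had 99 and 56, and Atoh7, which acts upstream of Pou4f2 in the retina, had 38 and 40. Isl1, a LIM partner of Pou4f1 in sensory neurons and of Pou4f2 in the retina, had 111 and 76. Of 16 tectal and red nucleus factors, 15 had a peak of each replicate, led by Nkx6-1 (123 and 75), a ventral patterning factor, and Lhx1 (119 and 73), a LIM factor.

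Among 16 genes known to depend on Pou4f factors in sensory, retinal or hair cells, 14 had a peak of each replicate at a TSS. By mean percentile, Ntrk2, the BDNF receptor (120 and 63), and Snap25, a synaptic vesicle fusion protein (121 and 58), led. Runx3, a Runt factor of sensory neurons, had 41 and 48, and Gfi1, a zinc finger factor of hair cells, had 54 and 51, both near the values of Pou4f3. Dlx1 had a peak in replicate 2 alone, of signal 44. Avil, the actin-binding advillin of sensory neurons, had no TSS peak in either replicate. These shares, 14 of 16 here and 16 of 16 and 15 of 16 above, stand beside the 65.5% of all genes.

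Markers of the tissue and of other cells in which Pou4f genes act were read in the same way. Their counts stand beside the 65.5% of all protein-coding genes that had a peak of each replicate at a TSS. For midbrain tissue, 7 of 8 markers had a peak of each replicate at a TSS, with signals from 49 to 111 and from 53 to 82, among them En2 (111 and 82) and Pax7 (91 and 75), while Lmx1b had one in replicate 2 alone (37). All 6 markers of newborn neurons did, with signals from 57 to 138 and from 12 to 91, led by Tubb3 (138 and 71) and Map2 (115 and 91). For sensory ganglion neurons, 9 of 10 did, led by P2rx3 (133 and 81) and Isl1 (111 and 76), and Avil had no peak. For retinal ganglion cells, 5 of 6 did, from 38 to 137 and from 16 to 80, led by Irx2 and Isl2, and Opn4 had a peak of signal 16 in replicate 1 alone. For hair cells, 6 of 6 did, from 38 to 124 and from 18 to 91, led by Myo6 and Atoh1. Open promoters of these lists do not count cells, and the part of any cell type in the accessibility of the Pou4f genes was not tested.

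The genes most like each member were taken over 4 percentiles, of TSS signal and of peaks per kb of span in each of the 2 replicates. For Pou4f1 they were Cdc42se1, with TSS signals of 123 and 63 and 55 and 50 peaks in its span, and Mipep (119 and 66; 89 and 72 peaks). For Pou4f2 they were Ankrd29 (74 and 60; 23 and 81 peaks) and Tex264 (75 and 57; 22 and 72 peaks). Both also had more peaks in replicate 2, which the choice by peaks per kb in each replicate favoured. For Pou4f3 they were Ripply2 (63 and 46; 19 and 37 peaks) and Bdkrb2 (51 and 42; 21 and 38 peaks). The Euclidean distances ran from 3.28 to 5.54 percentile units.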

How the data were processed

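DNase-seq peaks and hotspots of mouse embryonic day 11.5 midbrain were used as deposited, 1 list of each per replicate. Per the file headers and records, the authors called them on mm10 from the alignments of each replicate, without pooling. Which aligner and caller made them is not given in the sources used here. Each deposited peak carries a signal with no stated normalization, used as the authors' value. The q-value of each deposited hotspot is on a −log10 scale from 1.30 to 100. A score deposited beside each hotspot was left unused. The lists give no depth.

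Rows off chromosomes 1 to 19 and X were dropped, and repeated rows (51 and 106) counted once. Peaks overlapping by at least 1 bp were merged. TSSs came from GENCODE vM21 basic transcripts, and sequence from GRCm38.p6 and RefSeq. Scripts used Python 3.11.15, numpy 2.4.6, pandas 2.3.3 and samtools 1.23.1, and were tested on simulated data. Named sites were the TSS peaks, the 5 shared sites of highest mean percentile of signal, the nearest one and the strongest peak of each replicate without a partner, with others chosen after their values were seen. The most alike genes were sought outside 300 kb of a member. The members and the gene lists were chosen with earlier results of these data known, and the RE1 word and the words for TATA, CCAAT and GC boxes after the sequences were read. The alternatives tried were other windows, overlaps and signal limits, hotspots in place of peaks, and 1 replicate at a time. Some genes that the rules take are not named here.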

Additional observations from a re-analysis of the deposited data

How the results depend on the processing

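All 3 genes kept a peak of each replicate at a TSS with a window of 1000 bp, all annotated transcripts, hotspots, the stronger 50% of peaks and either replicate alone, and 2 of 3 did with a window of 150 bp. With hotspots in place of peaks, Pou4f1 had 15 shared regions, against 23 shared sites. Sites counted from 1 replicate at a time numbered 44 to 50 at Pou4f1, 19 to 57 at Pou4f2 and 18 to 28 at Pou4f3, so the order of the genes held in replicate 1 and not in replicate 2, where Pou4f2 led. Flanks of 50 kb (19, 10 and 7), an overlap of at least 50% (16, 11 and 7), the stronger 50% of peaks (22, 14 and 10) and, added after seeing the data, leaving out promoters of other genes (21, 13 and 10) kept the order Pou4f1, Pou4f2, Pou4f3. No paired analysis was possible because the series has 1 group. With 2 libraries of unknown depth, a peak found in 1 replicate cannot be told from one that was missed in the other.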
